A study of Arabidopsis thaliana with 11 samples.

Results

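The plastid-encoded genes of Arabidopsis thaliana are described here in etiolated hypocotyls, the embryonic stems of seedlings grown in the dark. Members are all array features whose identifier begins with ATCG, the prefix of plastid loci. The array holds 87 of them, 1 for each of 87 loci, among 37118 features in all. The groups are hypocotyls labelled atpme3-1, a loss-of-function line of the gene of PME3, an enzyme that removes methyl esters from cell-wall pectin (5 arrays, replicates 1, 2, 3, 5 and 6), and wild type (6 arrays, replicates 1 to 6), both of ecotype Columbia. All seedlings were 96 h old, after 3 days of cold at 4 °C in the dark, 6 h of white light at 20 °C and 4 days of darkness. About 300 hypocotyls were pooled for each separately obtained replicate, and its total RNA went on 1 array of a single chip. The sources used here do not say how the RNA was primed for labelling.

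Plastids keep a small circular genome left from their cyanobacterial ancestor. It is read by a plastid-encoded RNA polymerase of bacterial type, which needs nuclear-encoded sigma factors to find promoters, and by nuclear-encoded polymerases of phage type. In darkness the plastids of a seedling become etioplasts, which lack chlorophyll and assembled photosystems but still transcribe their genome. RefSeq's table for the TAIR10.1 assembly lists 129 plastid genes, of which 85 code for proteins, 37 for tRNAs and 7 for rRNAs. Among its symbols are 15 psb and 5 psa genes for the photosystems, 6 pet genes for the cytochrome b6f complex and photosynthetic electron transport, 6 atp genes for ATP synthase and 11 ndh genes for the NDH complex. A further 4 rpo genes code for the plastid RNA polymerase, 12 rps and 9 rpl genes for ribosomal proteins, and 1 rbc gene for the large subunit of Rubisco. Neither the files nor this table pairs these symbols with ATCG identifiers (0 of 87 matched), so each locus is given by its identifier and no role is assigned to it.

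The signal of the targeted gene went against the label of the mutant arrays. The PME3 feature had 21426 to 22285 intensity units on the 5 mutant arrays and 13236 to 14890 on the 6 wild-type arrays, a log2 fold change of 0.61 ± 0.040 (SE, limma adjusted p = 4.91e-07). Where the insertion and the probes lie was not among the sources used, and probes outside the disrupted stretch would not test the label. The arrays are called "labelled mutant" throughout, and every direction rests on that label. Array medians lay between 3776 and 3909 intensity units. Lists of seed and root markers differed between the groups at a limma adjusted p under 0.05. Of 9 seed markers 8 were higher and 0 lower, with median log2 fold change 1.40. Of 7 root markers 4 were lower and 1 higher, with median -1.34. Over all features 18.8% were higher and 13.6% lower. The mean of the seed list relative to its wild-type mean was 1.16 to 1.63 on labelled mutant arrays and -0.36 to 0.18 on wild-type arrays, and that of the root list was -1.79 to -0.87 on labelled mutant arrays and -0.21 to 0.26 on wild-type arrays. The part of these differences in the plastid values was not tested.

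Plastid-encoded features were among the brightest on the array in both groups. Of the 87, 44 lay in the brightest 1% of all features by mean signal, 38 more in the brightest 10%, and 5 below that. They made up 11.8% of the 372 features of the brightest 1%. Leaving out ATCG00940, their intensities ran from 10549 to 53727. The summed signal of the members was 0.974% ± 0.032 of all signal on labelled mutant arrays (SD, n = 5; 0.938% to 1.01%) and 0.936% ± 0.051 in wild type (SD, n = 6; 0.855% to 0.992%), so the groups overlapped. The number of plastids and the RNA per plastid cannot be told apart in such bulk samples.

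ATCG00020 was the brightest of all features by mean over the 11 arrays and the brightest single feature on 5 of them. Its intensity was 51702, 50915, 47624, 50329 and 48679 on labelled mutant arrays 1, 2, 3, 5 and 6, and 43371 to 53727 with a median of 47636 in wild type. The groups overlapped widely (log2 fold change 0.06 ± 0.055, SE, 95% interval -0.06 to 0.18, limma adjusted p = 0.398). The next brightest were ATCG00270 (41874 to 46933 on labelled mutant arrays and 42966 to 48704 in wild type), ATCG00960, described below, ATCG00280 (39836 to 43991 and, in wild type, 36215 to 42868) and ATCG01060 (34817 to 43110 and, in wild type, 32586 to 40344). Array maxima lay between 48902 and 53727, so these features sat at the top of the measured range. At the other end, ATCG00940 had 2487 to 4637 units on labelled mutant arrays and 3997 to 6868 in wild type, near the middle of all features, at percentile 52.2. The 4 next dimmest, ATCG00130, ATCG01130, ATCG00900 and ATCG00780, lay at percentiles 83.6 to 89.9, and none of them passed the test (adjusted p = 0.189 to 0.928 by limma). Brightness depends on the probes as well as the transcript, so it gives no order of transcript levels between loci.

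**Figure D1:**
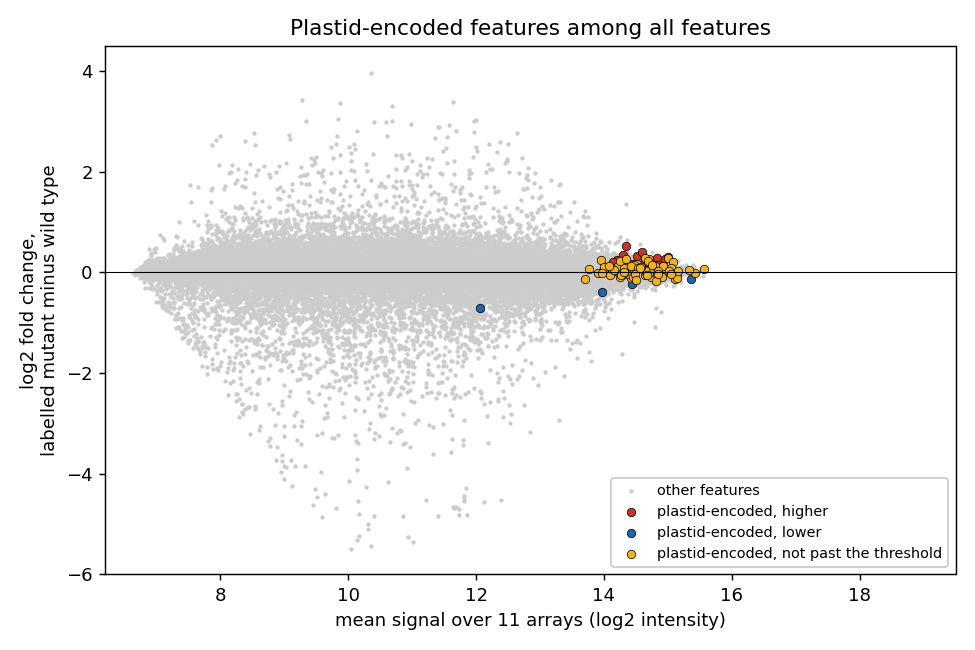
Each point is a feature, with its mean log2 intensity over 11 arrays on the x axis and its log2 fold change, labelled mutant minus wild type, on the y axis; plastid-encoded features are coloured by whether they were higher, lower or not past an adjusted p of 0.05. The plastid-encoded features sit at the bright end, with log2 fold changes between -0.70 and 0.52, and ATCG00940 lies apart at lower signal.

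Few plastid-encoded features differed between the groups, and most differences were small. In a limma fit over all features with Benjamini-Hochberg adjustment and a threshold of 0.05, 14 of the 87 were higher on labelled mutant arrays and 4 lower, or 20.7%, against 32.4% of all features called. By direction, 16.1% of members were higher against 18.8% of all features, and 4.60% were lower against 13.6%. The median log2 fold change was 0.045 over the members and 0.044 over all features. Only ATCG00940 passed with a fold of at least 1.5, 1 of 87 members against 8.41% of all features. Most members lay in the brightest 10%, and no share is given here for features of similar brightness. With features below the median signal left out, 21.8% of members were called, against 30.6% of the features tested. Whether fold changes near the top of the measured range were compressed was not tested. For 83 members the 95% interval of the fold change lay within 1.5-fold in either direction. The other 4 were ATCG00940, ATCG00440, ATCG00080 and ATCG00470. The groups did not overlap for 7 members, or 8.05%, against 19.6% of all features. Among the 69 members that did not pass, 43 had a positive and 26 a negative fold change, from -0.17 for ATCG00905 to 0.28 for ATCG01000.

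Mitochondrion-encoded features (identifiers beginning with ATMG), the other organelle genome on the array, gave few calls and only 1 rise. Of 107 such features 1 was higher and 12 lower, or 12.1% called, with median log2 fold change -0.0047. Over all features 32.4% were called, 18.8% higher and 13.6% lower. Whether the organelles differ was not tested.

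The feature of lowest p was ATCG00040. Its intensity was 26008, 27302, 24890, 27759 and 27266 on labelled mutant arrays 1, 2, 3, 5 and 6, and 19957 to 22228 with a median of 21112 in wild type. Every labelled mutant array lay above every wild-type array (1.26-fold, log2 fold change 0.33 ± 0.043, SE, limma adjusted p = 0.000153). This call was kept in all 11 fits that left out 1 array.

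The largest rise was that of ATCG00440. It measured 25098, 28286, 25073, 24583 and 23761 on labelled mutant arrays 1, 2, 3, 5 and 6, and 13404 to 21633 with a median of 17721 in wild type. The labelled mutant arrays lay close together and above all wild-type arrays, which spread more widely, with wild type 1 lowest and wild type 6 highest (1.43-fold, log2 fold change 0.52 ± 0.11, SE, limma adjusted p = 0.00392). Its neighbours by number on the array, ATCG00430 and ATCG00460, measured 0.22 ± 0.089 and 0.26 ± 0.098 (SE) and did not pass (limma adjusted p = 0.0748 and 0.0616). ATCG00420, the locus before ATCG00430, rose by 0.18 ± 0.061 (SE, limma adjusted p = 0.0438), and that call did not hold in 7 of the 11 leave-one-array-out fits. Deviations of ATCG00430 and ATCG00440 from their group means correlated at 0.76 over the 11 arrays, while those of ATCG00420 and ATCG00430 correlated at -0.02. These correlations are descriptions over arrays that share chip and scaling.

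ATCG00080 followed by p. It had 28036, 33272, 27911, 30354 and 25084 units on labelled mutant arrays 1, 2, 3, 5 and 6, and 18975 to 24276 with a median of 22023 in wild type. Array 6 was the lowest of the labelled mutant group and still above all wild-type arrays (1.33-fold, log2 fold change 0.41 ± 0.089, SE, adjusted p = 0.00463).

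A pair of features on 2 probes each also rose without overlap. ATCG01140 had 36540, 35003, 36728, 38556 and 37582 units on labelled mutant arrays 1, 2, 3, 5 and 6, and 24775 to 32951 with a median of 30237 in wild type (log2 fold change 0.31 ± 0.067, SE, adjusted p = 0.00487). ATCG00990 was nearly constant on the labelled mutant arrays, at 34852, 35066, 35702, 35020 and 36128, and varied from 24914 to 33506 with a median of 29914 in wild type (0.27 ± 0.078, SE, adjusted p = 0.0223). Their deviations from the group means did not run together (r = -0.01 over 11 arrays). The other 2 members on 2 probes, ATCG00320 and ATCG00600, and the 2 on 1 probe, ATCG00850 and ATCG01290, did not pass; the remaining 81 members rest on 3 probes, and 16 of these were called.

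Of the other 9 rises, ATCG00930 was the largest at 0.35 ± 0.097 (SE, limma adjusted p = 0.0182). It had 23157, 23147, 20330, 24649 and 23595 units on labelled mutant arrays 1, 2, 3, 5 and 6, and 14372 to 20929 with a median of 18866 in wild type, where only labelled mutant 3 fell inside the wild-type range. ATCG00360 (0.29), ATCG00570 (0.26), ATCG00050 (0.24) and ATCG01010 (0.21, groups not overlapping) followed. ATCG00420, ATCG00860 (0.16), ATCG00530 (0.15) and ATCG01110 (0.15) rose by at most 1.13-fold. Of these 9, ATCG00360 was lost in 7, ATCG01010 in 6, ATCG00860, ATCG00530 and ATCG01110 in 8 each and ATCG00050 in 1 of the 11 fits without 1 array, whereas ATCG00930 and ATCG00570 were kept in all. With arrays 3 numbers apart averaged, ATCG00360 and ATCG01010 were the only 2 of these 9 still called. In that fit of fewer values 19.3% of all features passed, against 32.4% with all arrays.

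**Figure D2:**
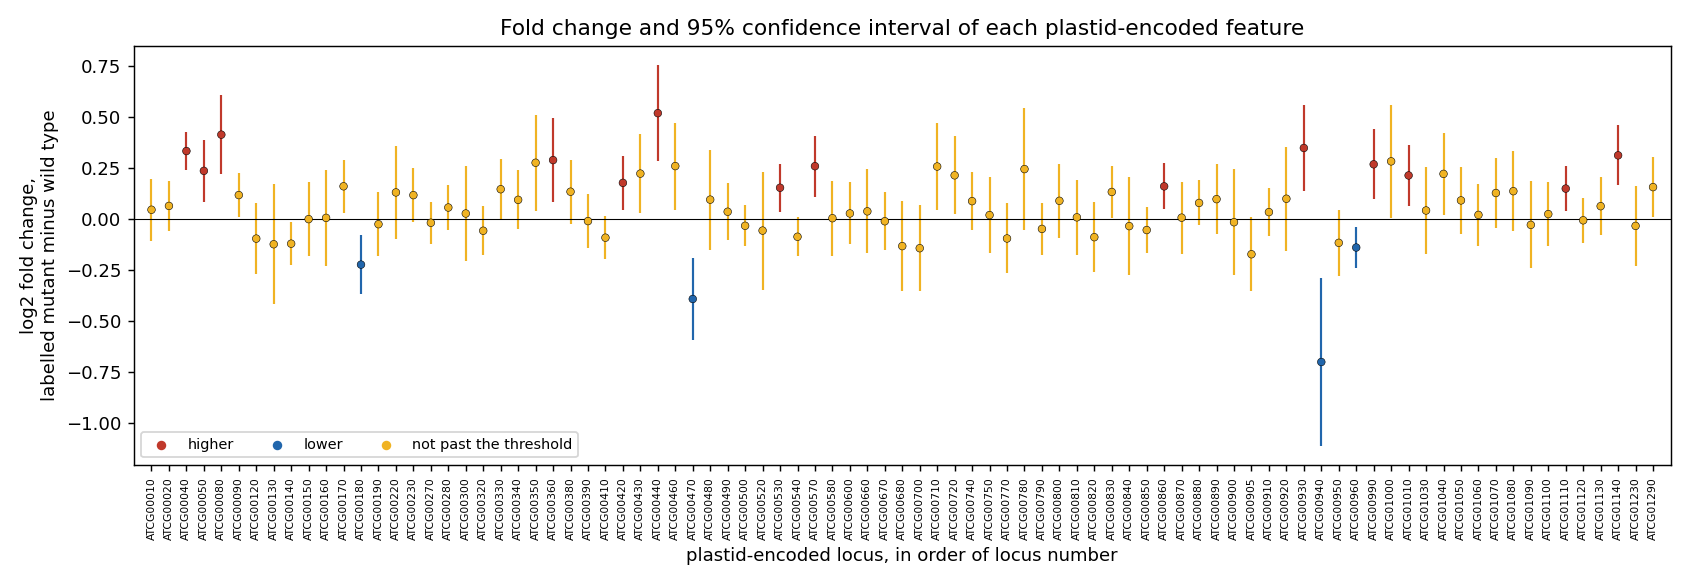
Log2 fold change (labelled mutant minus wild type) of the 87 plastid-encoded features in order of locus number, with 95% confidence intervals from limma; colour marks features higher, lower or not past an adjusted p of 0.05. The 14 higher and 4 lower features are scattered along the order, and ATCG00930 and ATCG00940, neighbours by number, go in opposite directions.

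The largest fall, and the largest change of any member, was that of ATCG00940. It had 2928, 2487, 2947, 3830 and 4637 units on labelled mutant arrays 1, 2, 3, 5 and 6, and 3997 to 6868 with a median of 5610 in wild type. Labelled mutant 6 lay inside the wild-type range and the other 4 below it (1.63-fold lower, log2 fold change -0.70 ± 0.19, SE, limma adjusted p = 0.0149). Its 95% interval ran from -1.11 to -0.29, the widest of the members called, and the call was kept in all 11 fits without 1 array.

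ATCG00470 had 12546, 12096, 14308, 13475 and 17679 units on labelled mutant arrays 1, 2, 3, 5 and 6, and 16530 to 19936 with a median of 18334 in wild type. Again labelled mutant 6 alone lay among the wild-type arrays (-0.39 ± 0.091, SE, adjusted p = 0.00736). The next locus by number, ATCG00480, measured 0.09 ± 0.11 (SE) and did not pass.

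ATCG00180 had 19498, 17826, 22187, 22009 and 21175 units on labelled mutant arrays 1, 2, 3, 5 and 6, and 22652 to 26734 with a median of 23588 in wild type, without overlap (-0.22 ± 0.067, SE, adjusted p = 0.0243). The call was lost without labelled mutant 1 or without labelled mutant 2. ATCG00960, one of the 5 brightest members, had 38424 to 41645 units on labelled mutant arrays and 41133 to 46713 in wild type (-0.14 ± 0.046, SE, adjusted p = 0.0351), a call lost in 6 of the 11 fits.

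**Figure D3:**
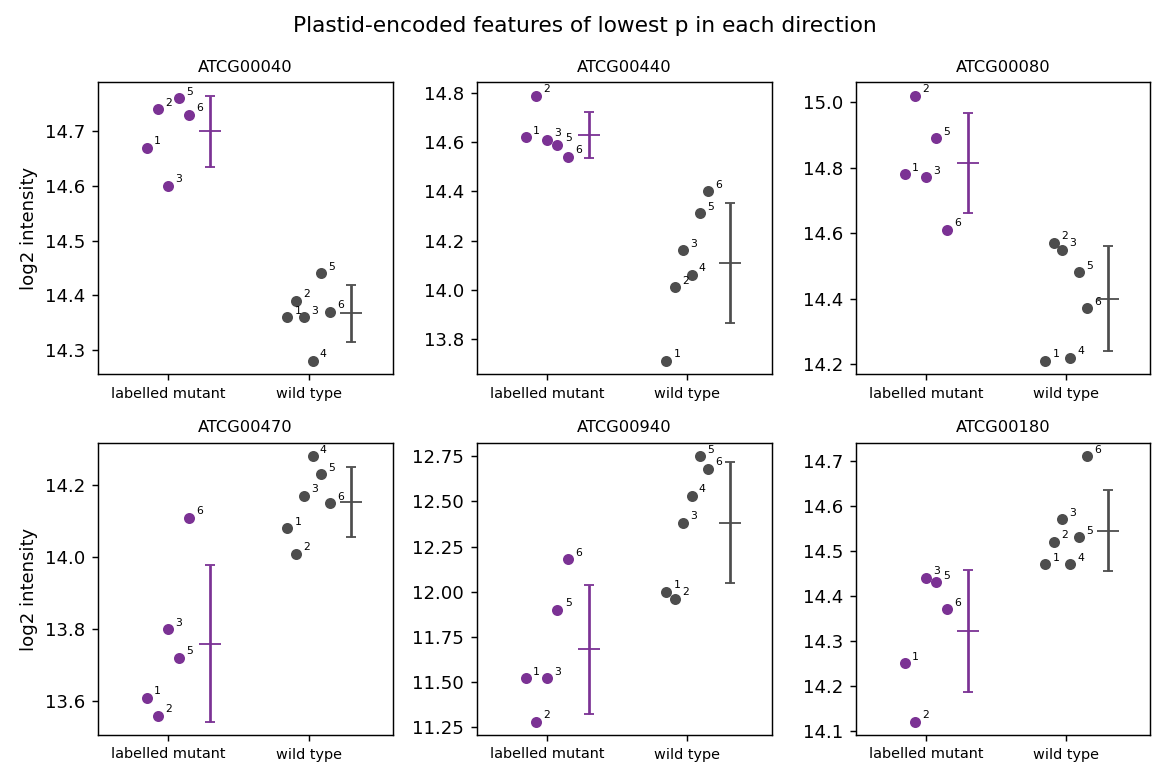
Log2 intensity per array of the 3 plastid-encoded features of lowest p in each direction, with labelled mutant arrays on the left and wild type on the right of each panel; numbers are replicates, and the bars give mean and SD (n = 5 and n = 6). The upper panels (ATCG00040, ATCG00440, ATCG00080) show no overlap, while in ATCG00470 and ATCG00940 labelled mutant 6 reaches the wild-type arrays.

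The counts moved with single arrays. Without labelled mutant 5, 7 members were higher and 4 lower, where 28.7% of all features passed. Without labelled mutant 2 there were 9 and 3 (26.6% of all features), and without labelled mutant 1 there were 10 and 2 (25.2%). Without wild type 1, 9 were higher and 5 lower (29.5%), and without wild type 2, 9 and 4 (28.6%). Of the 18 members called, 3, 1, 4, 1 and 6 lay inside the wild-type range on labelled mutant 1, 2, 3, 5 and 6. Without labelled mutant 6, 10 members were higher and 4 lower (32.6% of all features). Arrays of a group 3 numbers apart resembled each other over all features in wild type: deviations from the group mean correlated at 0.58 for replicates 2 and 5, 0.69 for 3 and 6 and 0.18 for 1 and 4. In the labelled mutant group the values were 0.07 for 2 and 5 and 0.03 for 3 and 6. The other labelled mutant pairs gave 0.15 for 1 and 3 and -0.63 to -0.20 for the rest. Deviations from a group mean cancel over its arrays, which pulls such correlations below 0, so values near 0 do not show that the labelled mutant arrays lack this likeness. Over the 87 members the wild-type values were -0.57, -0.06 and -0.60. With such arrays averaged, 9 members passed, all among the 18, and 19.3% of all features.

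Plastid-encoded features had a larger median spread between arrays of a group than the other bright features. The median residual SD was 0.13 on the log2 scale over the members and 0.077 over the other 3630 features of the brightest 10%, with 0.12 over all features. The members rest on 1 to 3 probes each, whereas 71.1% of all features rest on 4 probes. The part of probe number in this spread was not tested. The mean deviation of the members from their wild-type mean was 0.00, 0.05, 0.02, 0.11 and 0.12 on labelled mutant arrays 1, 2, 3, 5 and 6, and -0.14, -0.05, 0.04, -0.02, 0.09 and 0.08 on wild-type arrays 1 to 6. The spread among wild-type arrays was thus larger than the difference of 0.06 between the group means. Wild type 1 was the lowest, with 15 of 87 members above the wild-type mean, and wild type 5 had 72.

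This variation was set beside the array names in the files, which carry the numbers A01 to A12. In these names labelled mutant and wild type alternate in order of replicate. Replicates 1 to 3 of both groups lie on A01 to A06, and the others, 2 labelled mutant and 3 wild-type arrays, on A07 to A12. A fit was made with these array sets beside the group, a split chosen after the values were seen. In it 74 of 87 members were higher on A07 to A12. The median log2 difference was 0.088 over the members and -0.0091 over all features. The matching count over all features was not made. Members share the scaling of each array, so the 74 are not separate observations. By limma 0 members and 0 of all features passed (0% called), and 24 members had an unadjusted p under 0.05, of which 23 were higher on A07 to A12, or 27.6%, against 11.8% of all features. ATCG00940 differed most between the array sets, by 0.57 ± 0.091 (SE, adjusted p = 0.114). Over the 87 members, deviations of labelled mutant and wild-type arrays from their group means correlated positively in 12 of the 15 pairs of the same array set (-0.23 to 0.53) and in 2 of the 15 pairs of different array sets (-0.51 to 0.09). Labelled mutant 6 correlated at 0.53, 0.35 and 0.27 with wild type 4, 5 and 6, and at -0.51, -0.29 and -0.20 with wild type 1, 2 and 3. Deviations from a group mean cancel over the arrays of that group, so positive values in one array set bring negative values in the other. The contrast of signs is thus partly built in and is no separate evidence. Over all features, pairs of the same array set gave -0.12 to 0.29, with 9 of 15 positive. Pairs of different array sets gave -0.30 to 0.15, with 5 of 15 positive. Place on the chip and order of collection cannot be told apart here.

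Of the 87 members, 66 had the same sign in both array sets, among them all 18 called. For the called members this follows in part from their having been called on these arrays. The share over all features was not counted, so the 66 are not read as a trait of the members. ATCG00440 measured 0.71 on A01 to A06 and 0.30 on A07 to A12, ATCG00940 -0.67 and -0.61, and ATCG00040 0.30 and 0.38. Fitted alone, A01 to A06 gave 5 members higher and 2 lower, or 8.05%, against 18.2% of all features. A07 to A12 gave 0 by limma, against 5.27% of all features. On these arrays 9 members had an unadjusted p under 0.05, or 10.3%, against 19.9% of all features. With the array set as a block, 17 members were higher and 5 lower, or 25.3%, against 33.1% of all features.

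**Figure D4:**
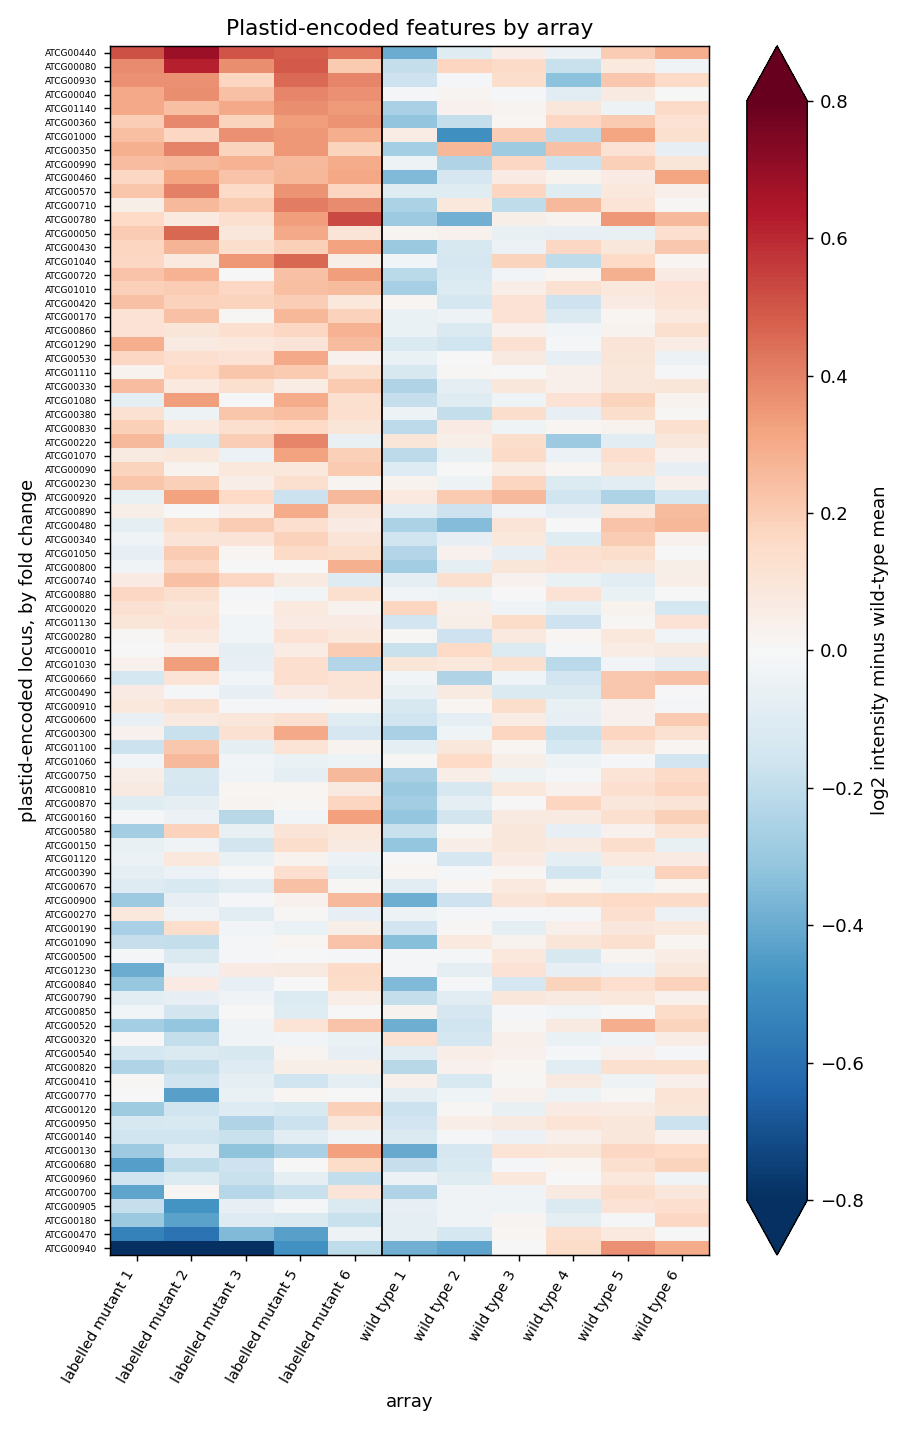
Log2 intensity minus the wild-type mean for each plastid-encoded feature (rows, sorted by fold change from highest to lowest) on each array (columns, labelled mutant left of wild type); values of ATCG00940 beyond -0.8 are drawn at the end of the scale. Wild type 1 is low across most rows, and in the bottom 2 rows (ATCG00470 and ATCG00940) labelled mutant 6 is nearest to the wild-type mean among the labelled mutant arrays.

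Members with neighbouring locus numbers were little more alike than others. Deviations from the group means correlated at a median of 0.34 over the 86 pairs adjacent on the array and 0.29 over the other 3655 pairs. The median absolute difference in log2 fold change was 0.13 for adjacent pairs and 0.14 for the others. The pairs most alike were ATCG00130 with ATCG00800 and ATCG00780 with ATCG00940 (r = 0.96 each over 11 arrays), and in both the members had fold changes of opposite sign. For ATCG00780 and ATCG00940 these were 0.24 and -0.70. Only ATCG00940 passed, while ATCG00780, ATCG00130 and ATCG00800 did not. Signs were mixed among the next most alike pairs, such as ATCG00990 with ATCG01000 (0.27 and 0.28) and ATCG00870 with ATCG00900 (0.0061 and -0.016). All features of an array share its scaling, so these values describe the arrays as much as the loci.

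Nuclear genes whose products work in the plastid gave few calls. In 9 lists with 128 genes, all on the array, 7 were higher and 10 lower, or 13.3%, against 32.4% of all features. Among 20 genes of the plastid transcription machinery 1 was higher and 4 lower (median 0.037), and all 5 were sigma factor genes, which direct the plastid-encoded polymerase to promoters. SIGC (AT3G53920) had log2 intensities of 13.60, 13.53, 13.46, 13.53 and 13.42 on labelled mutant arrays 1, 2, 3, 5 and 6, and 13.64 to 13.93 with a median of 13.72 in wild type (-0.25 ± 0.057, SE, limma adjusted p = 0.00702). SIGF (AT2G36990) had 13.81 to 13.87 on labelled mutant arrays and 13.89 to 14.08 in wild type (-0.15 ± 0.043, adjusted p = 0.0199), and SIG2 (AT1G08540) 13.26 to 13.51 and, in wild type, 13.52 to 13.75 (-0.22 ± 0.059, adjusted p = 0.0174). In all 3 the groups did not overlap, and the calls were kept in all 11 fits without 1 array.

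SIG4 (AT5G13730) fell by 0.23 on the log2 scale (limma adjusted p = 0.0253) and SIGA (AT1G64860) rose by 0.40 ± 0.12 (SE, adjusted p = 0.0210). Both calls were lost in 2 of the 11 fits, and in both the groups overlapped. SIGE (AT5G24120) had 12.81 to 13.19 on labelled mutant arrays and 13.07 to 14.08 in wild type, where replicates 2 and 5 were high, and did not pass (-0.43 ± 0.19, adjusted p = 0.0995). SCA3 (AT2G24120), a phage-type plastid polymerase, measured -0.07 ± 0.057 (adjusted p = 0.393), and AT5G15700 0.11 ± 0.062 (adjusted p = 0.188). With arrays 3 numbers apart averaged to 1 value, 0 of the 5 sigma factor calls remained. That fit has fewer values per group, and 19.3% of all features passed in it, against 32.4% in the main fit.

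**Figure D5:**
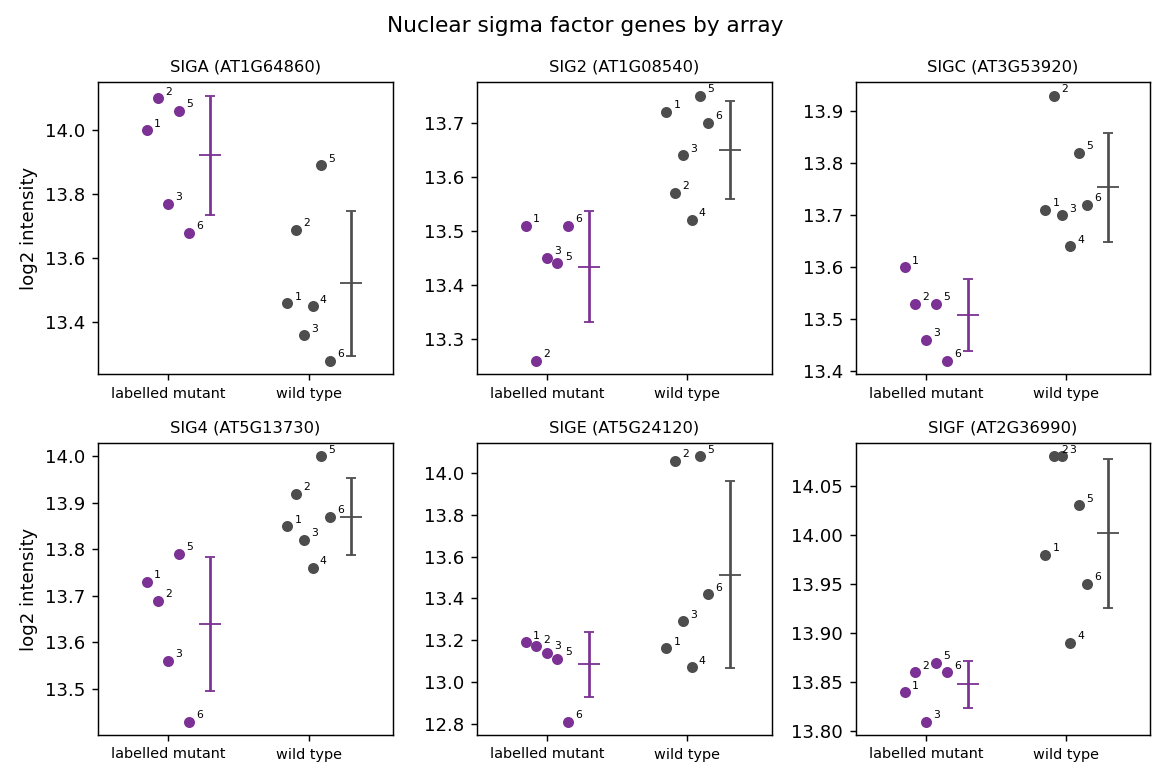
Log2 intensity per array of the 6 nuclear sigma factor genes, labelled mutant left of wild type in each panel; numbers are replicates, and the bars give mean and SD (n = 5 and n = 6). SIG2, SIGC and SIGF do not overlap between the groups, and SIGE is high in wild type 2 and 5.

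The other partner lists held few calls. Of 17 genes of plastid RNA processing and stability, RNEE/G (AT2G04270), an endoribonuclease of RNase E type, fell (-0.23 ± 0.041, SE, limma adjusted p = 0.00127) and EMB2730 (AT5G02250) rose (0.24). Of 26 nuclear subunits of the photosystems, cytochrome b6f and ATP synthase, PSBX rose (0.24) and PSBY fell (-0.21). Of 31 plastid ribosomal proteins, RPL12-C rose (0.25) and PRPS20 (-0.24), AT2G43030 (-0.27) and GHS1 (-0.30) fell. Of 9 Clp protease subunits, CLPP4 rose (0.15) and CLP2 fell (-0.14). Among green-tissue genes, 1 of 4 Rubisco small subunits (RBCS1B, 0.44) and 1 of 13 light-harvesting proteins (LHCB4.1, 0.20) rose. None of 4 NDH subunits and 4 acetyl-CoA carboxylase subunits passed. In the fits without 1 array, the calls of EMB2730, RBCS1B and CLP2 were lost in 9, PSBX, LHCB4.1 and GHS1 in 8, AT2G43030 in 6, CLPP4 in 5 and PRPS20 in 2 of 11.

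The light-harvesting list was highest on replicates 2 and 5 and lowest on 3 and 6 in both groups. Its mean deviation was 0.03 and 0.09 on labelled mutant arrays 2 and 5, -0.23 and -0.15 on 3 and 6, and -0.11 on 1. In wild type it was 0.30 and 0.43 on replicates 2 and 5, -0.34 and -0.33 on replicates 3 and 6, and -0.06 and -0.01 on replicates 1 and 4.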

How the data were processed

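Single-colour NimbleGen arrays of 11 samples were used. Each deposited value is a linear-scale intensity per feature; the submitters' processing notes name RMA as the authors' method. Its settings, background correction and the genome build were not stated in the sources used. Such summarising brings arrays to a common scale and removes changes in total RNA. No detection calls were used. The value table equals the array files (largest difference 0), and 0 value columns belong to other samples.

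The log2 of the deposited intensities was fitted in R 4.3.3 with limma 3.58.1 (functions lmFit and eBayes, all 37118 features, no filter or covariate), and p-values were adjusted after Benjamini-Hochberg with a threshold of 0.05. The fit was tested on simulated data. Each log2 fold change is the labelled mutant mean minus the wild-type mean. For nuclear genes the feature of highest mean was used, and symbols come from the RefSeq table (TAIR10.1), where all 144 listed loci were found. Labels call the replicates separate collections.

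Members, lists, tests and alternatives were chosen with earlier results of these data known. Grouping by role, operon and repeat copy was planned but not made, since no table pairs ATCG identifiers with genes. Named are all members called, the 5 brightest and 5 dimmest, called genes of the nuclear lists (at most 2 per direction by lowest p, and the third fall among plastid ribosomal proteins, added after its value was seen), all sigma factor genes, SCA3, AT5G15700 and PME3; other members named were chosen after their values were seen. The number of arrays limits the precision.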

Additional observations from a re-analysis of the deposited data

Results flagged for a closer look

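In 96 groups of values (48 quantities in each of the 2 groups), 3 had an array farther from the others than Dixon's 95% limit allows; chance flags about 1 in 20 groups. ATCG01060 was highest on labelled mutant 2, at a log2 intensity of 15.40, against 15.09 to 15.12 on the other labelled mutant arrays. SIGE (AT5G24120) was lowest on labelled mutant 6, at 12.81, against 13.11 to 13.19 on the others. ATCG00270 was highest on wild type 5, at 15.57, against 15.39 to 15.43 on the others.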

How the results depend on the processing

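The median log2 fold change of the members stayed between 0.032 and 0.067 in all alternatives, and PME3 stayed higher in every fit (0.584 to 0.618 without 1 array). The count of members higher, 14, became 8 with 75th percentile centring, 7 with arrays 3 numbers apart averaged (fewer arrays) and 4 at an adjusted p under 0.01; members lower, 4, became 2 after averaging and 1 at 0.01. The counts were 18 higher and 5 lower with a trended, robust eBayes fit and 17 and 5 with array weights. In these fits 26.4% and 25.3% of members were called, against 33.7% and 37.4% of all features. The shares were 13.8% against 31.4% with 75th percentile centring, 10.3% against 19.3% after averaging and 5.75% against 17.5% at 0.01. Without 1 array in turn, 7 to 14 were higher, 2 to 5 lower, and 9349 to 12096 of all features passed, against 12033 with all arrays. All features passing were 7174 after averaging, 6481 at 0.01 and 5680 with features below the median signal left out (fewer features tested). On A01 to A06 alone, chosen after seeing the data, 5 members were higher, 2 lower and 6743 features passed; on A07 to A12 alone 0, 0 and 1956. The split of all calls was 58.1% higher, and 54.5% to 62.8% under other scalings. With the replicate block, 13 members were higher and 3 lower and 26.2% of all features passed, against 32.4% without it. The median was 0.04, and 12 of these calls were among the 18 called without the block; the 6 lost were ATCG00050, ATCG00420, ATCG00530, ATCG00570, ATCG00960 and ATCG00990. Same-numbered arrays of the groups correlated at 0.19 to 0.37 over the members and -0.06 to 0.29 over all features, so the numbers were not taken to pair samples. Among them, 3 of 5 labelled mutant arrays correlated best with the wild-type array of their number over the members and 1 of 5 over all features.

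Among 46 named values under 24 alternatives, 262 comparisons lost a call, 1 gained one and 14 changed sign, none of them of a called value. For ATCG00900 these were 0.013 with the replicate block, 0.012 with the array set as a block, 0.027 on A01 to A06, and, without wild type 3, 4, 5 or 6 or labelled mutant 1, 0.004, 0.013, 0.016, 0.013 and 0.051 (range without 1 array -0.094 to 0.051). For ATCG00270 they were 0.004 with array weights, 0.008 without wild type 5 (range -0.043 to 0.008) and 0.01 on A01 to A06; for ATCG01060, -0.011 without wild type 6, -0.039 without labelled mutant 2 and -0.003 on A01 to A06. The cause of these changes was not tested. Averaging inverted repeat copies was not run, since no table names the copies. Signal over background was not assessed, since no detection calls were used.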
